A study of Mus musculus with 6 samples.

Results

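The MYB family of transcription factors comprises 3 mouse genes, Myb, Mybl1 and Mybl2, and their messenger RNA was compared here between germinal centre B cells treated with the GSK3 inhibitor CHIR99021 and cells given the solvent DMSO. The family was picked on the values of one gene: it was selected from the CHIR99021 against DMSO comparison because Myb rose strongly, and the other genes came in as its relatives. The change of Myb is therefore given as a description with no test. All 3 genes are found in the deposited tables, with 1 entry each among 23850 gene entries, and all 3 are among the 10096 entries that were tested. Levels are in FPKM, fragments scaled for transcript length and library total, and an entry was tested where its average across the 6 libraries was at least 1 FPKM.

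Every culture came from wild-type C57BL/6J mice. Naive follicular B cells were grown for 4 days on feeder cells expressing CD40L with IL-4 at 1 ng/ml, and then treated for 36 h with IL-21 at 10 ng/ml, also on such feeder cells. The treatment was CHIR99021, labelled 3 uM, in 3 libraries, and DMSO, for which the labels print the same dose, in 3 libraries. The design names biological triplicates without saying how the cultures were separated, so p-values measure the spread between these cultures. They are an in vitro model, in which feeder cells and cytokines take the place of the germinal centre's surroundings.

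MYB proteins bind DNA through repeats of a tryptophan-rich helix motif, and they act mainly as activators. c-MYB, encoded by Myb, is needed for blood progenitors and for early B and T cell development, is low in resting mature B cells, and has roles in plasma cells and in long-lived T cells. A-MYB, encoded by Mybl1, is known from male germ cells and from germinal centre B cells. B-MYB, encoded by Mybl2, is made in nearly all dividing cells, where it is switched on by E2F factors and joins the MuvB complex to activate genes of G2 and mitosis. GSK3 is a kinase that marks many proteins for destruction, among them beta-catenin, which then no longer serves TCF and LEF factors at their target genes.

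The coding sequences show how near the family members stand to each other and whether their reads could be confused. In GENCODE vM21 (GRCm38, the assembly of mm10), the aligned coding bases of Myb and Mybl1 were identical at 62.3%, those of Myb and Mybl2 at 59.5% and those of Mybl1 and Mybl2 at 58.2%. The stretch of 90 coding bases most alike in all 3 genes is shown, with bases identical in all 3 in capitals. It spans coding bases 376 to 465 of Myb, 361 to 450 of Mybl1 and 349 to 438 of Mybl2, counted from the start codon.
Myb: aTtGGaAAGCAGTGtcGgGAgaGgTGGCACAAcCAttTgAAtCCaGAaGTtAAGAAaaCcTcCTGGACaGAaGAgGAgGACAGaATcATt
Mybl1: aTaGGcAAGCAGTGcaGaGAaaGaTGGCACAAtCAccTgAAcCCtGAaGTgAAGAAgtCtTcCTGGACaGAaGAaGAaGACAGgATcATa
Mybl2: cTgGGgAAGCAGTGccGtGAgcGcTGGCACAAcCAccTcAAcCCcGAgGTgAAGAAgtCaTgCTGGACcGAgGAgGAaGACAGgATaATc
Of these 90 bases, 62 were identical in all 3 genes, and the differences are spread along the whole stretch. The longest run of identical bases between any coding transcripts of 2 members was 14 (Myb and Mybl1, inside both coding regions), against 12 for Myb and Mybl2 and 13 for Mybl1 and Mybl2.

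Mybl2 had the highest level of the family in every library. Its FPKM was 34.9, 46.7 and 37.9 in DMSO replicates 1, 2 and 3, and 34.8, 45.2 and 39.5 in CHIR99021 replicates 1, 2 and 3. The groups overlap almost wholly, and replicate 2 is the highest in each. Mybl2 stood at rank 1917 of 10096 tested genes by mean level in DMSO and at rank 1854 in CHIR99021. The log2 change of FPKM + 1 (CHIR99021 minus DMSO) was 0.00 ± 0.14 (SE, n = 3 per group), with an adjusted p of 0.993 by limma, or 0.00 ± 0.06 with an adjusted p of 0.977 when the replicate number was a block. By replicate number, the ratio of CHIR99021 to DMSO was 0.996, 0.969 and 1.04. Mybl2 lies on chromosome 2 (163054635 to 163084687, mm10, plus strand), with 14 exons in the GENCODE transcript whose coding bases are shown.

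Myb had 3.72, 6.97 and 3.93 FPKM in DMSO replicates 1, 2 and 3, and 17.8, 29.3 and 23.7 FPKM in CHIR99021 replicates 1, 2 and 3. The lowest CHIR99021 library is above the highest DMSO library, as the groups of 40.1% of tested genes lie apart in one direction or the other. Mean levels were 4.88 ± 1.82 and 23.6 ± 5.75 FPKM (SD, n = 3 per group), a ratio of 4.84, and the log2 change was 2.08 ± 0.24 (SE). By replicate number, the ratio was 4.78, 4.21 and 6.02. With a replicate block, which leaves the estimate as it is in this balanced design, the SE was 0.10. A log2 change at least as large in this direction was held by 12 of the 10096 tested genes (0.119%), Myb among them. This place follows from the choice of Myb for its rise. The gene moved from rank 7430 by mean level in DMSO to rank 2972 in CHIR99021. Myb lies on chromosome 10 (21124930 to 21160984, minus strand, with 15 exons in the transcript shown). GENCODE places an antisense gene, Gm26577, inside this span. The libraries were made with a stranded kit, but no source used here states the strand setting of the counting. Overlap of exons was not checked. Whether reads of such an antisense transcript were counted with those of Myb is therefore not known.

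Mybl1 had the lowest mean of the family in both groups, at 2.81, 6.14 and 3.43 FPKM in DMSO replicates 1, 2 and 3, and 2.17, 3.22 and 1.64 FPKM in CHIR99021 replicates 1, 2 and 3. The groups overlap, but each CHIR99021 library is below the DMSO library of the same number, with ratios of 0.774, 0.524 and 0.48. That order in all 3 numbers was shared by 37.3% of tested genes. The log2 change was -0.59 ± 0.27 (SE), with an adjusted p of 0.165 by limma. With the replicate number as a block, Mybl1 was called lower (-0.59 ± 0.13, adjusted p = 0.0131), in a fit that called 42.8% of tested genes. The Cufflinks limits, which cover the error of a single library, lay 15.5% to 32.6% from the value of Mybl1, against 4.93% to 6.95% for Mybl2 and 8.09% to 24.7% for Myb. Mybl1 lies on chromosome 1 (9668835 to 9700209, minus strand, with 16 exons in the transcript shown).

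**Figure D1:**
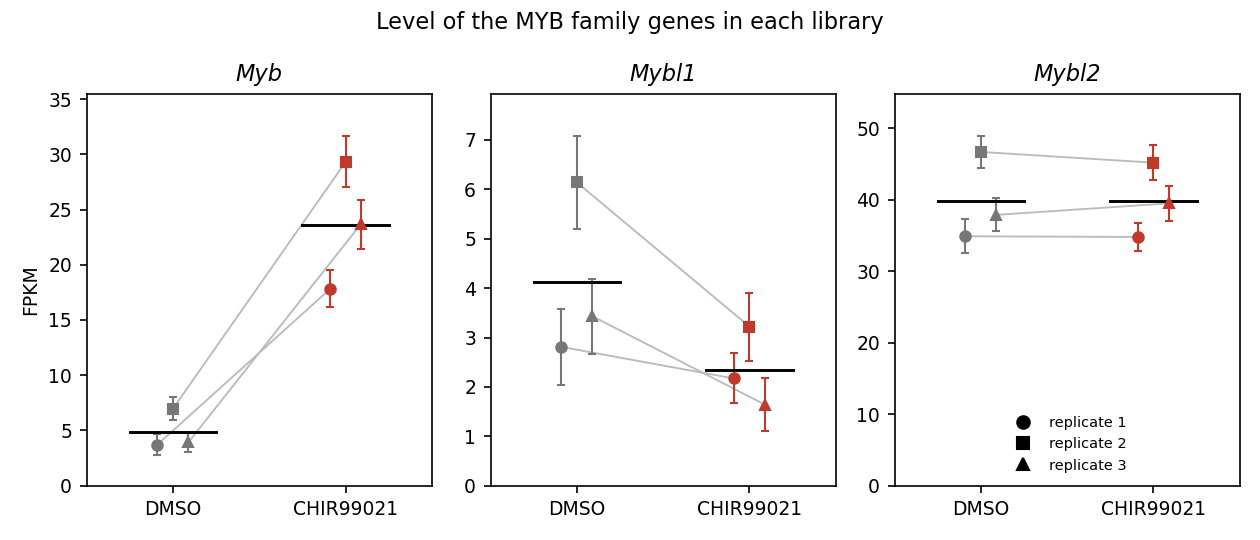
FPKM (y axes, one scale per gene) of Myb, Mybl1 and Mybl2 in DMSO (grey) and CHIR99021 (red), where each marker is 1 library, marker shapes and grey lines join libraries of the same replicate number, bars on markers are the Cufflinks confidence limits, and black lines are group means. Myb runs from 3.72 to 6.97 in DMSO and from 17.8 to 29.3 in CHIR99021, Mybl1 is lower in each CHIR99021 library than in its DMSO partner, and Mybl2 stays between 34.8 and 46.7.

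The make-up of the family differed between the groups with these levels. FPKM are scaled for transcript length, so levels of different genes can be set side by side. In DMSO, Mybl2 gave 82 ± 3.43% of the summed FPKM of the 3 genes, Myb 9.78 ± 1.64% and Mybl1 8.21 ± 1.83% (SD, n = 3). In CHIR99021, the shares were 60.9 ± 2.66% for Mybl2, 35.6 ± 2.7% for Myb and 3.55 ± 0.879% for Mybl1. The summed level was 48.8 ± 9.67 FPKM in DMSO and 65.8 ± 11.5 FPKM in CHIR99021, with libraries from 41.4 to 59.8 and from 54.8 to 77.8, so the sums overlap while the shares of Myb do not. In DMSO, Myb and Mybl1 lay side by side, with Myb 1.14 to 1.33 times the level of Mybl1 within a library and limits that overlap in each of the 3. In CHIR99021, Myb was 8.2 to 14.4 times as high as Mybl1 and 0.513 to 0.648 times as high as Mybl2, against 0.104 to 0.149 times Mybl2 in DMSO. These shares rest on the values of Myb that led to the choice of the family, so they carry no test.

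**Figure D2:**
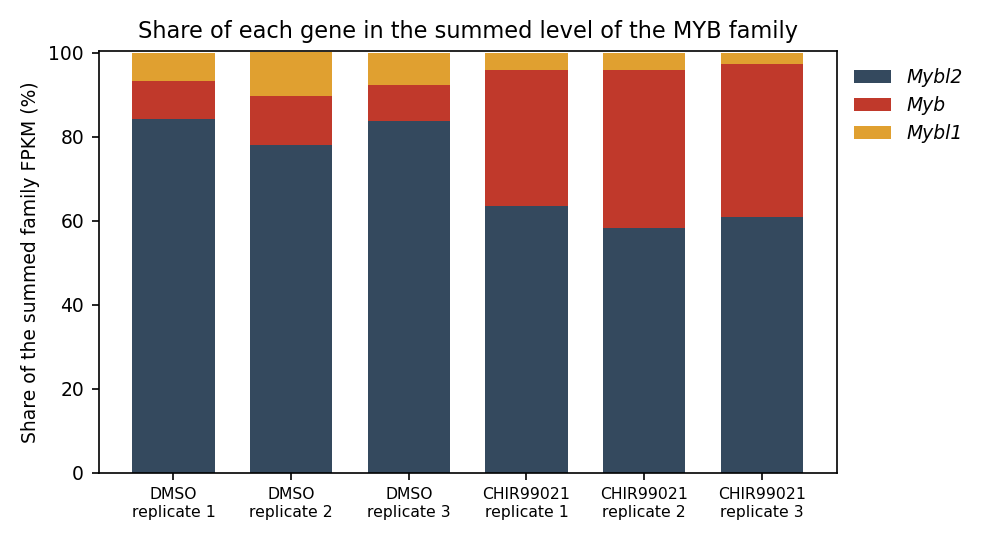
Share of Mybl2 (dark blue), Myb (red) and Mybl1 (yellow) in the summed FPKM of the family (y axis, percent) in each of the 6 libraries (x axis). Myb takes 8.69% to 11.7% of the sum in the DMSO libraries and 32.5% to 37.7% in the CHIR99021 libraries.

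For all 3 genes, replicate 2 had the highest level in both groups, a pattern held by 27.7% of tested genes. The summed FPKM over all entries was lowest in replicate 2 of each group (527290 in DMSO and 556644 in CHIR99021, against 601991 to 617449 in the other libraries). The part of this difference between libraries in the levels of the family was not tested. Over the 6 libraries, log2 levels of Mybl1 and Mybl2 correlated at 0.632, those of Myb and Mybl2 at 0.291 and those of Myb and Mybl1 at -0.453, as a description of libraries that share replicate number and scaling.

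The libraries carried B cell and plasma cell transcripts, while the defining markers of T cells and most markers of progenitors were near 0. Pan B cell markers summed to 2630 to 3480 FPKM in DMSO and 1330 to 1570 in CHIR99021, with all 7 markers averaging at least 1 FPKM. Of 8 germinal centre markers 7 reached that average, among them Fas and Mef2b, while Rgs13 did not. The sum was 130 to 136 FPKM in DMSO and 118 to 127 in CHIR99021. Fas fell from 31.9 ± 1.67 to 25.2 ± 1.46 FPKM (adjusted p = 0.0328 by limma), called in 4 of 11 alternative settings. Bcl6 had 7.18 ± 2.23 and 4.55 ± 1.72 FPKM (adjusted p = 0.16, or 0.00307 and lower with the replicate block). Gcsam, at 0.963 ± 0.331 and 1.77 ± 0.331 FPKM, met the limit only through CHIR99021. Of 6 plasma cell markers 5 averaged at least 1 FPKM, and the sum was 489 to 767 FPKM in DMSO and 471 to 588 in CHIR99021. Among these, limma called Irf4 and Prdm1 higher, the genes of 2 factors that drive plasma cell formation. Irf4 had 30.5 ± 2.04 and 82.1 ± 8.01 FPKM (2.69-fold, adjusted p = 0.000431), and Prdm1 had 6.27 ± 1.5 and 16.2 ± 2.74 FPKM (2.58-fold, adjusted p = 0.00347), both called in all 11 alternative settings. The J chain gene, listed as Igj, had 452 ± 135 and 289 ± 57.5 FPKM (adjusted p = 0.1, or 0.00134 and lower with the replicate block). The part of plasma cell differentiation in the level of Myb was not tested. Of 8 T cell markers only Lck and Thy1 averaged at least 1 FPKM. The sum was 22.8 to 36.7 FPKM in DMSO and 16.7 to 21.7 in CHIR99021, and Cd3e was listed at 0 in every library. Of 6 progenitor markers only the receptor gene Flt3 did, and the sum was lower in CHIR99021 (15 to 16.9 FPKM) than in DMSO (34.5 to 43.4). Fibroblast markers, which feeder cells could bring, summed to 84.8 to 354 FPKM in DMSO and 63.7 to 273 in CHIR99021, and their part in the levels of the family was not tested. Of 8 myeloid markers 3 did, summing to 25.4 to 33.2 FPKM in DMSO and 12.2 to 20.2 in CHIR99021, with Cd14 and Fcgr1 at 0 in every library. In such bulk samples, fewer cells with a transcript and less of it per cell cannot be told apart.

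The promoters are shown because TCF and LEF factors, the partners of beta-catenin, and E2F factors, known regulators of Mybl2, act at such DNA. RefSeq promoters (GRCm38.p6, windows of 300 bases that end shortly after the start) were matched for Myb and Mybl2, and none for Mybl1. In capitals are matches to an E2F site, spelled TTGGCGGGA, and to a TCF/LEF site. The TCF/LEF site was searched as CTTTGTT, with CTTTGTA as the next spelling, then CTTTGAT and lastly CTTTGAA, and all sites were searched on both strands. The letters of the E2F site were settled after both promoters had been read, and the other motifs were also chosen after the promoters were seen.
Myb, chr10:21160935-21161234, minus strand: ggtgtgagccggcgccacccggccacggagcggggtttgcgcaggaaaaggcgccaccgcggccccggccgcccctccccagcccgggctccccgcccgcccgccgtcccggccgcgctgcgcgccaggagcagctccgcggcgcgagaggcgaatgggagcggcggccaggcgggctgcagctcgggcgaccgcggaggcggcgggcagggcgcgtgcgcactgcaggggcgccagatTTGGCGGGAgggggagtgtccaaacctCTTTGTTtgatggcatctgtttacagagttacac
Mybl2, chr2:163054385-163054684, plus strand: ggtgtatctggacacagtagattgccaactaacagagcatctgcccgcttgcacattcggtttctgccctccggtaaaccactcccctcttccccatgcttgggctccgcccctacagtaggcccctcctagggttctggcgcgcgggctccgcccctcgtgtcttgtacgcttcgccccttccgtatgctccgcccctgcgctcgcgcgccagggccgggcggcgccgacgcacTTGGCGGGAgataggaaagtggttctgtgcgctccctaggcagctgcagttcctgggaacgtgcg
The E2F letters stand at -11 to -3 in Myb and at -15 to -7 in Mybl2, counted from the start as 1, on the strand of the gene in both. They are present in 88 of 32851 RefSeq promoters of this length (0.268%), while their core GGCGGGA, which lies within them, is in 11.3%. A TCF/LEF match, spelled CTTTGTT, stands in Myb at 17 to 23, just after the start. A match to any of the TCF/LEF spellings searched is in 16.9% of promoters. The promoter of Mybl2 holds no TCF/LEF match. Neither promoter holds the cell cycle element CHR, spelled TTTGAA or, in its other form, TTCGAA, found in 19.2% of promoters. A MYB site, AACNG, is present 1 time in Myb and 3 times in Mybl2, and in 80.3% of promoters. GC content was 75% for Myb and 64.7% for Mybl2.

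The genes next to Myb on chromosome 10 are Ahi1, which encodes a protein of the cilium base, and Hbs1l, which encodes a GTPase that rescues stalled ribosomes. Hbs1l begins 134995 bases beyond the start of Myb, and the stretch between these genes is known for enhancers of MYB in blood cells. Hbs1l had 24.6, 27.7 and 23.1 FPKM in DMSO replicates 1, 2 and 3, and 40, 44.6 and 47 FPKM in CHIR99021 replicates 1, 2 and 3. No library of one group reaches the other. Hbs1l rose 1.75-fold (log2 change 0.78 ± 0.10 SE, adjusted p = 0.00217 by limma), and it was called in all 11 alternative settings. On the other side, 44501 bases past the end of Myb, Ahi1 had 1.31 ± 0.351 and 1.3 ± 0.0727 FPKM (log2 change -0.00 ± 0.17 SE, adjusted p = 0.998).

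Of 9 tested genes other than Myb within 1 Mb of it, 2 rose and 0 fell, in a comparison that called 8.13% of tested genes higher and 13.3% lower. The other gene that rose, 4930455C13Rik, lies inside the span of Hbs1l, so their reads may overlap. By limma with the replicate block, Bclaf1 and Sgk1 were also called higher and Map3k5 lower (adjusted p = 0.00934, 0.0447 and 0.00916). That fit called 18.4% of all tested genes higher and 24.4% lower. Around Mybl1, 1 of 8 tested genes rose without the block, the small nucleolar RNA host gene Snhg6 (66 ± 2.79 to 147 ± 10.4 FPKM). The neighbour of Mybl1, Vcpip1, had 10.7 ± 0.706 and 10.5 ± 0.959 FPKM. With the block, Rrs1 was also called higher and Sgk3 lower (adjusted p = 0.00102 and 0.0123). Around Mybl2, 1 of 13 rose and 1 fell without the block. With it, Ada was also called higher (adjusted p = 0.0402), and Serinc3 (adjusted p = 0.00998) and Ift52 lower. The neighbour of Mybl2, Ift52, a gene of transport within cilia, had 18.9 ± 1.61 and 15 ± 0.615 FPKM (adjusted p = 0.0563, or 0.011 and lower with the replicate block).

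**Figure D3:**
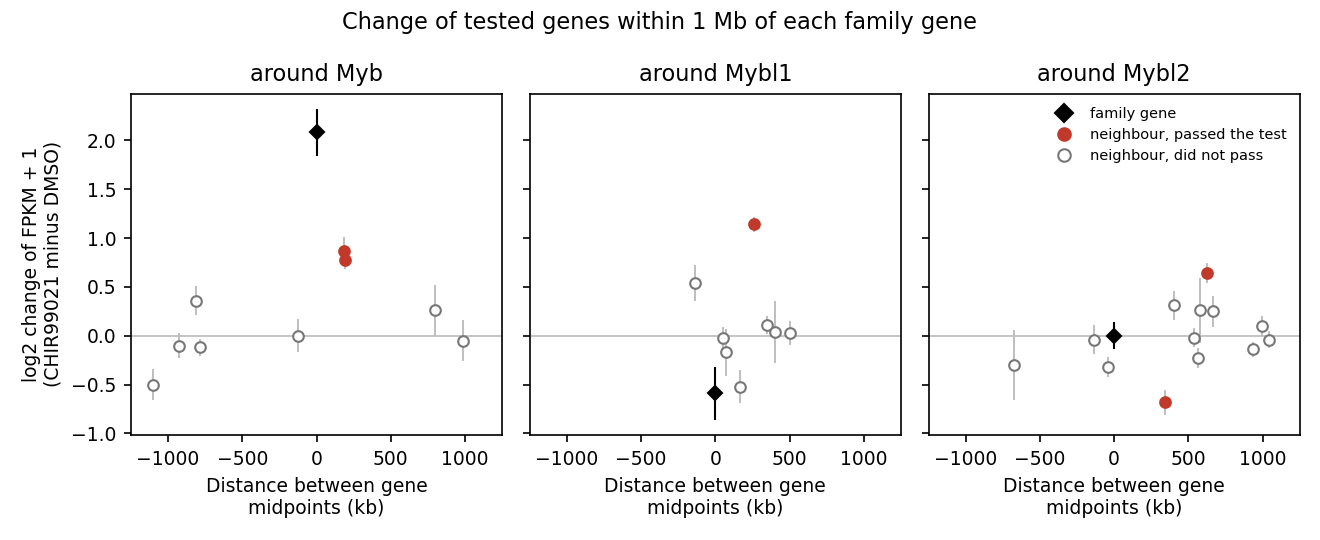
Log2 change of FPKM + 1 (y axis, CHIR99021 minus DMSO, bars are SE) of tested genes whose spans lie within 1 Mb of Myb, Mybl1 or Mybl2, by the distance between gene midpoints in kb (x axis). Black diamonds are the family genes, red points are neighbours that passed the test and open points are those that did not. Hbs1l and 4930455C13Rik, at 0.78 and 0.87, are the red points next to Myb.

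MuvB is the complex that carries B-MYB to mitotic genes, and with E2F4 or E2F5, a DP protein and p130 or p107 it forms DREAM, which holds the same genes silent in resting cells. Of 13 genes for these complexes, 3 fell and 0 rose by limma (23.1%, against 21.4% of all tested genes called in either direction; 4 fell and 1 rose at an unadjusted p under 0.05). The median log2 change was -0.24, against -0.04 over all tested genes. The genes that fell were Rbl2, which encodes p130 (10.4 ± 1.19 to 6.92 ± 0.406 FPKM), the DP protein gene Tfdp2 (2.27 ± 0.302 to 1.03 ± 0.251) and the MuvB subunit gene Lin37 (19.6 ± 0.442 to 13 ± 3.32). Their adjusted p were 0.0205, 0.0248 and 0.0478. The MuvB scaffold Lin9 had 6.25 ± 1.56 and 6.99 ± 0.948 FPKM, and the DNA binding subunit Lin54 had 8.06 ± 0.934 and 8.17 ± 1.01. Foxm1, the factor that joins MuvB after B-MYB, had 22.6 ± 4.13 and 17.9 ± 2.88 FPKM (adjusted p = 0.18, or 0.00836 and lower with the replicate block). With the block 6 of the 13 fell and 1 rose, against 42.8% of all tested genes called. Without DMSO replicate 1, DMSO replicate 3, CHIR99021 replicate 2 or CHIR99021 replicate 3, the calls were 1, 0, 1 and 0, and 2 without either other library.

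Genes of G2 and mitosis that B-MYB, MuvB and FOXM1 bind in dividing cells were examined next. Of 27 such genes, 9 fell and 0 rose by limma (33.3%, with 11 and 0 at an unadjusted p under 0.05), against 13.3% of all tested genes called lower, and the median log2 change was -0.16. The estimate was below 0 for 24 of the 27, against 5534 of all 10096 tested genes. Kif23, a kinesin of the dividing cell's midzone, had 47.2, 49.2 and 43.1 FPKM in DMSO replicates 1, 2 and 3, and 30.5, 30.1 and 26.1 in CHIR99021 replicates 1, 2 and 3. All CHIR99021 libraries of Kif23 are below all DMSO libraries (log2 change -0.67 ± 0.10 SE, adjusted p = 0.00317 by limma). Kif11, the kinesin that separates spindle poles, fell from 42.7 ± 3.46 to 32.1 ± 1.5 FPKM, and Kif20a, another midzone kinesin, from 34.3 ± 1.37 to 24.6 ± 3.06. Cyclin B1, Ccnb1, had 77.6 ± 3.38 and 72.8 ± 3.87 FPKM (adjusted p = 0.468), and the mitotic kinase gene Plk1 had 90.1 ± 2.8 and 84.8 ± 4.21 (adjusted p = 0.471). With the replicate block 14 fell and 0 rose, against 24.4% of all tested genes called lower in that fit. The count depended on single libraries: without DMSO replicate 1, DMSO replicate 3, CHIR99021 replicate 1, CHIR99021 replicate 2 or CHIR99021 replicate 3 it was 2, 2, 5, 3 and 1. Kif23 was called in all 11 alternative settings.

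E2F factors stand upstream of Mybl2. Of 17 E2F genes and E2F targets of S phase, 1 rose and 1 fell by limma (11.8%, below the 21.4% of all tested genes, with a median log2 change of -0.07). E2f2 had 45.7, 45.7 and 45.3 FPKM in DMSO replicates 1, 2 and 3, and 23.7, 20.9 and 18.8 in CHIR99021 replicates 1, 2 and 3. The DMSO libraries of E2f2 are nearly equal and each is well above every CHIR99021 library (2.15-fold lower, log2 change -1.08 ± 0.10 SE, adjusted p = 0.000583). Cyclin E1, Ccne1, which drives entry into S phase, rose from 30.7 ± 1.48 to 39.4 ± 3.29 FPKM (adjusted p = 0.0334). E2f1, the best-known activator of the group, had 23.5 ± 4.33 and 22.2 ± 2.07 FPKM (adjusted p = 0.77). With the replicate block 4 rose and 4 fell (47.1%, against 42.8% of all tested genes). E2f2 was called in all 11 alternative settings, while the call of Ccne1 ended without DMSO replicate 1, DMSO replicate 2, DMSO replicate 3, CHIR99021 replicate 2 or CHIR99021 replicate 3.

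Of 18 genes described as c-MYB targets in blood cells or their progenitors, 8 lay below the limit on level: Kit, Cd34, Gata3, Rag2, Cd4, Il7r, Elane and Mpo. None of these 8 exceeded 0.323 FPKM in any library, and Rag2 was listed at 0 in all 6. Of the 10 tested, 3 rose and 2 fell by limma, where 8.13% of all tested genes were called higher and 13.3% lower. One of the 3, Gfi1, met the limit on level only through the CHIR99021 libraries. The list was also chosen with earlier results of these data known, so this count is given as a description. Gfi1, a repressor of stem and progenitor cells and lymphocytes, had 0.868, 0.662 and 0.26 FPKM in DMSO replicates 1, 2 and 3, and 3.85, 5.65 and 3.99 in CHIR99021 replicates 1, 2 and 3. Every CHIR99021 library of Gfi1 is above every DMSO library, with a ratio of means of 7.54, given with no test since the limit on level selected for this difference. Tcf7, a partner of beta-catenin, rose from 5.68 ± 0.364 to 29.3 ± 7.01 FPKM, and the chemokine receptor gene Cxcr4 from 24.6 ± 5.88 to 44.8 ± 5.1.

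Zeb2, a repressor that c-MYB is known to hold down in T cells, had 17.6, 16.1 and 16.5 FPKM in DMSO replicates 1, 2 and 3, and 8.83, 8.57 and 5.35 in CHIR99021 replicates 1, 2 and 3. Its groups lie apart (log2 change -1.07 ± 0.17 SE, adjusted p = 0.00518 by limma). The early B cell factor gene Ebf1 fell from 30.5 ± 1.39 to 19 ± 1.25 FPKM (adjusted p = 0.00251). The survival gene Bcl2 had 5.36 ± 1.18 and 3.53 ± 0.325 FPKM (adjusted p = 0.0731, or 0.0131 and lower with the replicate block). Myc had 37.1 ± 7.82 and 38 ± 4.85 FPKM (adjusted p = 0.877). With the replicate block 5 of the 10 rose and 3 fell, against 18.4% and 24.4% of all tested genes. Without any one library 5 were called. Both counts include Gfi1, so they too are descriptions. Tcf7, Cxcr4, Zeb2 and Ebf1 were each called in all 11 alternative settings.

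Of 16 genes for cofactors, modifiers and degraders of MYB proteins, 3 rose and 0 fell by limma (18.8%, near the 21.4% of all tested genes, with the same counts at an unadjusted p under 0.05; median log2 change 0.07). Ppid, which encodes cyclophilin 40, an inhibitor of DNA binding by c-MYB, rose from 42.1 ± 8.55 to 70.5 ± 12.1 FPKM (adjusted p = 0.0216). Mybbp1a, which encodes a nucleolar protein that binds the leucine zipper of c-MYB, rose from 92.1 ± 19.1 to 150 ± 27.4 (adjusted p = 0.0336). Of the coactivator genes, Crebbp had 3.09 ± 1.08 and 2.25 ± 0.803 FPKM and Ep300 had 11.8 ± 3.37 and 9.91 ± 2.46 (adjusted p = 0.384 and 0.558). Fbxw7, whose product marks c-MYB for destruction, had 7.14 ± 2.23 and 7.7 ± 2.02 FPKM, and Nlk, a kinase that precedes it in that step, had 7.93 ± 1.01 and 9.32 ± 1.62. Pim1, a kinase that acts on c-MYB, had 83.3 ± 7.96 and 85.4 ± 12.1. With the replicate block 3 rose and 2 fell (31.2%, against 42.8% of all tested genes). Without DMSO replicate 1, DMSO replicate 3, CHIR99021 replicate 2 or CHIR99021 replicate 3, the calls were 0, 0, 1 and 0, and 2 without either other library.

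Other genes with a Myb-like DNA binding domain lie outside the family, such as the splicing factor gene Cdc5l, the cyclin D binding factor gene Dmtf1 and the telomere genes Terf1 and Terf2. Of 8 such genes limma called 0, against 21.4% of all tested genes called in either direction, and 1 was lower at an unadjusted p under 0.05. With the replicate block 1, Terf2, was called lower, in a fit that called 42.8% of all tested genes. The median log2 change was -0.16. Cdc5l had 32.6 ± 2.37 and 34.8 ± 0.549 FPKM, and Dmtf1 had 9.09 ± 3.73 and 9.21 ± 3.06. The estimates among these relatives ran from -0.51 to 0.22.

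**Figure D4:**
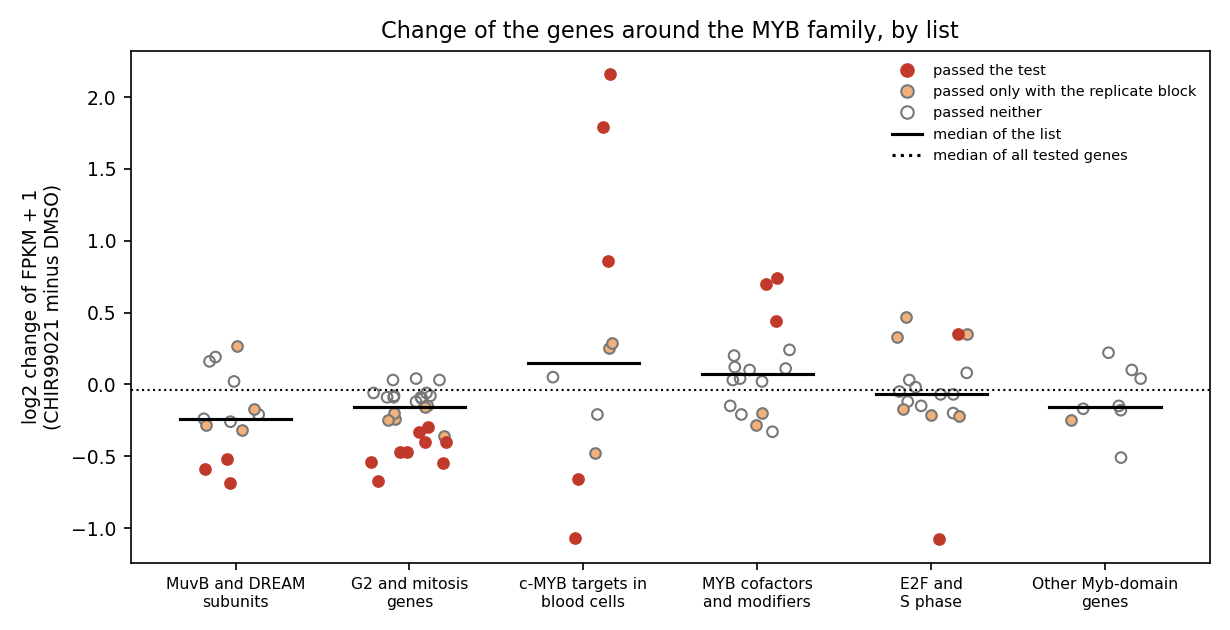
Log2 change of FPKM + 1 (y axis, CHIR99021 minus DMSO) of the tested genes of each list (x axis), where red points passed limma's test, orange points passed only with the replicate block and open points passed neither, black bars are list medians and the dotted line is the median of all tested genes, -0.04. The G2 and mitosis genes lie between -0.67 and 0.04, while the c-MYB targets run from -1.07 to 2.16. The red point of Gfi1, at 1.79, is a description only, since Gfi1 met the limit on level only through CHIR99021.

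The genes whose level followed each family member most closely were found over the 6 libraries among tested genes that averaged at least 5 FPKM. For Myb these were Dnph1 (Pearson r of 0.9983), Heatr3, Nop58, Rsl1d1 and Fam185a (0.9958), and 245 of 6971 genes had an r above 0.95. Dnph1, a nucleotide hydrolase gene, had 9.68, 11.2 and 10 FPKM in DMSO replicates 1, 2 and 3 and 14.9, 16.8 and 15.7 in CHIR99021 replicates 1, 2 and 3, so it kept the order of the libraries with a smaller fold (1.53). For Mybl2 the closest were Morc2a (0.9958), Inpp5b, Pole, Pcyt2 and Luc7l2 (0.9918). Pole, which encodes the catalytic subunit of DNA polymerase epsilon, had 16.3 ± 3.41 and 16.1 ± 2.34 FPKM. For Mybl1 the closest were Etv3 (0.9981), Zfp367, Ddx11, Pitpnm1 and Foxn2 (0.9835). These are descriptions over 6 libraries that share treatment, replicate number and scaling.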

How the data were processed

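Messenger RNA was sequenced from 6 cultures, 3 per group, with libraries made by the TruSeq Stranded mRNA kit, per the labels' protocols. Build mm10 and the tools TopHat2 2.1.1, Cufflinks 2.2.1 and cutadapt 1.12 are named in the submitters' processing notes. No source used here states the annotation, the strand setting or the treatment of reads with several matches. For each library the authors deposited gene FPKM with confidence limits, per the file headers, with every status OK. No count test was run on FPKM, and the depth is unknown beyond those limits.

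Values were transformed to log2(FPKM + 1), and the 10096 entries averaging at least 1 FPKM were fitted with limma 3.58.1 in R 4.3.3 (eBayes with a variance trend, two-sided, Benjamini-Hochberg over all of them, threshold 0.05). The pipeline was tested on simulated data. Python 3.11.15, pandas 2.3.3, numpy 2.4.6, Biopython 1.88 and matplotlib 3.10.9 did the rest. Libraries were grouped by their titles, which number replicates 1 to 3 in both groups. Deviations from group means correlated at 0.535, 0.49 and 0.517 across genes for same-numbered libraries, so these libraries vary together. The labels do not say what same-numbered libraries share. A fit with the number as a block stands beside results it changes. The share of identical values was 0% for every pair of libraries.

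The family, the gene lists, the key genes and the naming rule were chosen with earlier results of these data known, as was the 1 Mb window around each gene. Named genes are the 3 family members, 16 key genes and up to 3 genes with the smallest adjusted p under 0.05 in each list. Called members of a list may also be named where 5 or fewer were called. The nearest gene on each side, where it was tested, and the 5 most alike over libraries are named too. Snhg6, 4930455C13Rik, Terf1, Terf2, Cdc5l, Dmtf1 and genes named as below the limit on level were added after their values were seen. So were the marker genes that are named and the genes within 1 Mb named for their call with the replicate block. Older symbols were used for some list genes, and 1 list gene that the naming rule picks is not reported here. The alternatives were a pseudocount of 0.1 or 5, no limit on level, quantile scaling, the replicate block and leaving out each library. The E2F, TCF/LEF, CHR and MYB motifs were chosen after the promoters were seen.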

Additional observations from a re-analysis of the deposited data

How the results depend on the processing

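The rise of Myb kept its direction in all 11 alternative settings, at 1.53 on the log2 scale with a pseudocount of 5 and from 1.92 to 2.32 when 1 library was left out. Mybl1 was lower in each setting and passed the threshold only with the replicate block (-0.59, adjusted p = 0.0131), with -0.78 to -0.32 (adjusted p = 0.106 to 0.405) when 1 library was left out. Mybl2 did not pass in any setting, with -0.09 to 0.12 when 1 library was left out. With the replicate block, 4321 genes changed in place of 2164, and the lists gave 7 (MuvB and DREAM), 14 (G2 and mitosis), 8 (c-MYB targets), 5 (cofactors), 8 (E2F and S phase) and 1 (other Myb-domain genes). All 2164 genes were among the 4321. The block did not change the call of Mybl2, and Myb carries no call. Without the limit on level, the G2 and mitosis list gave 4 calls and the cofactors 0 (3 at an unadjusted p under 0.05), where more genes were tested. Leaving out 1 library gave 1061 to 1983 calls over all genes (1310 without DMSO replicate 3, 1410 without CHIR99021 replicate 2 and 1061 without CHIR99021 replicate 3). The lists then gave 0 to 2 (MuvB and DREAM), 1 to 7 (G2 and mitosis), 5 (c-MYB targets), 0 to 2 (cofactors), 1 to 2 (E2F and S phase) and 0 (other Myb-domain genes). The counts of c-MYB targets, here and with the replicate block, include Gfi1 and are descriptions. Where the MuvB and DREAM list gave 0, 3 genes had an unadjusted p under 0.05, and where the cofactors gave 0, 3 or 4 did. Quantile scaling turned the split of calls from 821 higher and 1343 lower to 1232 higher and 1174 lower, with the median change of all genes at -0.036 and 0.029. The cause of these differences was not tested. Depth is known only through the Cufflinks limits, which are widest for Mybl1.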
